A study of Rattus norvegicus with 12 samples.

Results

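Epididymal white fat of rats kept under caloric restriction (CR) was compared with that of rats of the same age fed ad libitum (AL), on 8 of the 12 arrays of the series. The 8 arrays were chosen by sample title, 4 for CR and 4 for AL, and all named genes were described, within and outside the synthesis of fatty acids and cholesterol. Both groups were Jcl:Wistar rats of the genotype written (-/-), that is, without the antisense growth hormone (GH) transgene of the third group. CR rats received 70% of the energy intake from 6 weeks of age, and all rats were 24 weeks old when killed. The other 4 arrays (Tg) came from heterozygous dwarf rats with that transgene, fed freely; their genotype field carries the same (-/-) entry, so groups were taken from titles. Every rat was given food 30 minutes before the lights went out and was killed after they came on the next morning. The titles call the samples biological replicates. A code in the sample descriptions is shared within a group and differs between groups; if it marks a working session, session and group cannot be told apart.

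White adipocytes store triglyceride. They take up fatty acids that lipoprotein lipase frees from blood lipoproteins, and they can also make fatty acids from glucose. In that second route glucose passes through glycolysis, pyruvate dehydrogenase and citrate to cytosolic acetyl-CoA, and the genes of the route are known to follow feeding, insulin and the transcription factors SREBP-1c and ChREBP. A fat pad also holds macrophages, fibroblasts and vessels. In such a bulk sample, fewer cells of a type and less RNA per cell cannot be told apart.

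Values are log2 signals of a probe set, summarised from its single probes, and a change is the CR mean minus the AL mean; levels of different probe sets are not comparable with each other. A gene was said to rise or fall when limma's adjusted p lay under 0.05, and each gene is represented by its brightest tested probe set. Of 23281 probe sets tested, 417 passed (1.79%): 203 rose (0.872%) and 214 fell (0.919%). The CR and AL arrays did not overlap for 415 of these 417, and for 2365 of all probe sets tested (10.2%). Of 12094 named genes, 123 rose (1.02%) and 149 fell (1.23%), and the median change over all of them was -0.001. At these shares a short list would hold few calls or none, so 0 or 1 call does not set a list apart. Changes above 2-fold were found for 24 of the genes that rose and 7 of those that fell. Of the 123 genes that rose, 13 belonged to the lists of fatty acid and cholesterol synthesis and 110 did not. Of 272 named genes past the threshold, 87 had another tested probe set. For 26 of these another passed in the same direction, for 61 none did, and for 7 another had the opposite sign. On intensities recovered from the deposited scores, 59 probe sets passed, 36 that rose and 23 that fell.

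**Figure D1:**
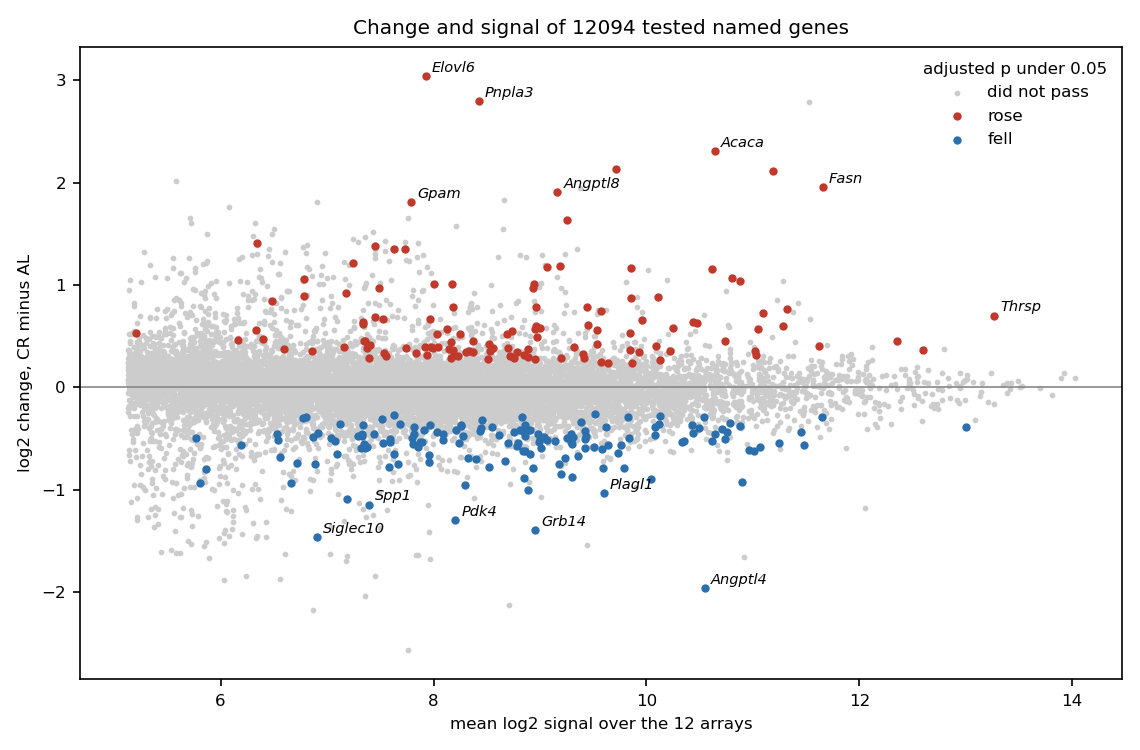
Each point is 1 of the 12094 tested named genes, with its mean log2 signal over the 12 arrays on the x axis and its log2 change, CR minus AL, on the y axis. Red points are the 123 genes that rose, blue points the 149 that fell, and grey points did not pass. The highest red points are Elovl6, Pnpla3 and Acaca, and the lowest blue point is Angptl4.

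The arrays were checked against markers of fat and of its neighbours. Adipocyte identity genes averaged 9.21 to 9.39 on the CR arrays and 9.27 to 9.43 on the AL arrays, and the adipokine gene Adipoq lay between 13.23 and 13.60 on all 8. Spermatid genes averaged 8.54 on CR1, 9.50 on AL1 and 10.53 on AL2, against at most 6.27 on the other CR and AL arrays; the 11 tested members had a median change of -1.63, and 0 passed. Genes of duct epithelium averaged 8.67 on CR2, 8.89 on CR4 and 8.23 on AL3, against at most 6.39 elsewhere in the 2 groups. The epididymis list was highest on CR4, at 9.99, and the exocrine pancreas list stood at 10.73 on Tg1 and at most 5.46 on the other arrays. CR3 had blank probes at 5.71%, against 0.327% to 1.88% on the other CR and AL arrays. The part of these differences in the changes below was not tested array by array; without AL1, AL2, CR1 and Tg2, 5 probe sets passed, and without CR3, CR4 and Tg1, 107 did.

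**Figure D2:**
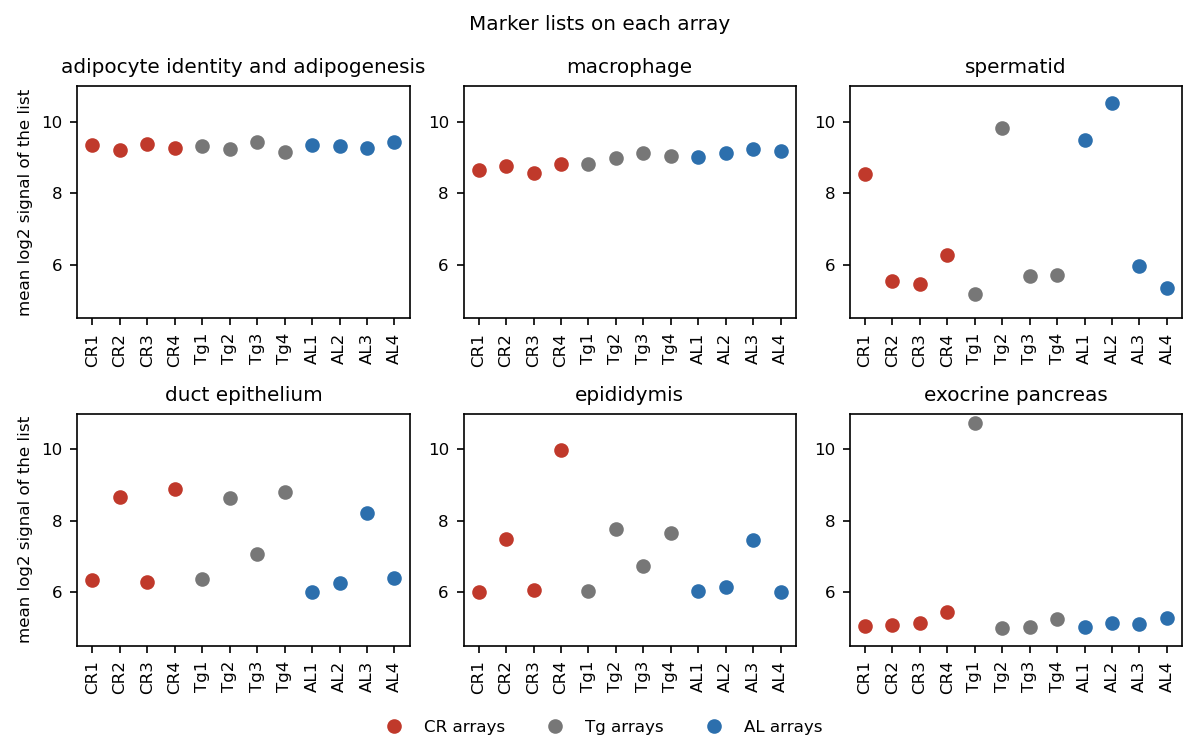
Mean log2 signal of 6 marker lists (y axis) on each of the 12 arrays (x axis), with CR arrays in red, Tg arrays in grey and AL arrays in blue; each point is 1 array. Adipocyte genes are level, macrophage genes are lower on the 4 CR arrays (8.56 to 8.82) than on the 4 AL arrays (9.01 to 9.24), spermatid, duct epithelium and epididymis genes are high on some arrays, and the exocrine pancreas list is high on Tg1.

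Genes that turn citrate into fatty acids were among those with the largest rises. Of 23 tested genes of the fatty acid synthesis list, 9 rose, 0 fell and 20 were higher in CR, with a median change of 0.70. Fasn, fatty acid synthase, read 12.98, 12.97, 13.38 and 12.67 on the CR arrays and 11.22, 11.13, 10.80 and 11.04 on the AL arrays, a change of 1.95 (SE 0.14, adjusted p = 0.000234). All CR arrays lay more than 1 log2 unit above every AL array, and another probe set of the gene was 3.27 higher in CR (adjusted p = 4.53e-05). Acly, which cleaves citrate to acetyl-CoA in the cytosol, read 12.69, 12.54, 12.74 and 11.91 in CR and 10.16, 10.28, 10.79 and 10.18 in AL (change 2.12, SE 0.21, adjusted p = 0.00204). The groups of Acly were again apart, with CR4 the lowest of its group and AL3 the highest of its group.

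Other members carry the chain before and after the synthase. Slc25a1, the carrier that exports citrate from mitochondria, rose by 1.17 (SE 0.19, adjusted p = 0.0175). The carboxylase gene Acaca, whose product is malonyl-CoA, ranged over 11.63 to 12.71 in CR and 9.68 to 10.20 in AL, a rise of 2.31 (adjusted p = 0.000595). Me1, the malic enzyme that supplies NADPH, rose by 2.13, and Elovl6, which lengthens palmitate, by 3.05, the largest rise of any named gene. Aacs, which activates acetoacetate in the cytosol so that ketone bodies can feed lipid synthesis, read 9.17, 8.96, 8.59 and 7.77 in CR and 7.36, 7.49, 7.29 and 6.94 in AL (change 1.35, SE 0.25, adjusted p = 0.0246). Fads1, a desaturase of polyunsaturated fatty acids, rose by 0.97 (adjusted p = 0.0106). The stearoyl-CoA desaturase Scd was at 2.79 without passing (SE 0.72, adjusted p = 0.0797); AL3, at 12.76, lay above CR4, at 12.52. Thrsp, the lipogenic protein Spot 14, rose by 0.70, with CR1, CR2 and CR3 above the deposited saturation level of their arrays.

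Cholesterol synthesis shares the acetyl-CoA pool. Of 19 genes tested, 4 rose, 0 fell and 18 were higher in CR, with a median change of 0.52. Nsdhl, which acts on sterols after lanosterol, read 9.36, 8.76, 9.04 and 8.27 in CR and 7.79, 7.80, 7.89 and 7.89 in AL (change 1.01, SE 0.18, adjusted p = 0.0223). Acat2, Idi1 and Msmo1, of the acetoacetyl-CoA, isoprenoid and sterol demethylation steps, rose by 0.79, 0.67 and 0.52. Insig1, which holds SREBP in the endoplasmic reticulum, was at 0.83 (adjusted p = 0.131), and Sqle, squalene epoxidase, at 0.58 (adjusted p = 0.299).

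Among the regulators of these routes, 6 of 19 rose and 1 fell, with a median change of 0.07. Mlxipl, which encodes the glucose-responsive factor ChREBP, read 8.78, 8.68, 8.71 and 7.86 on the CR arrays and 7.38, 7.57, 6.81 and 6.85 on the AL arrays (change 1.35, SE 0.22, adjusted p = 0.0182). CR4 stood below its group but above every AL array. Mlx, the binding partner of ChREBP, rose by 0.39 (adjusted p = 0.0433). Mid1ip1, whose product promotes the assembly of acetyl-CoA carboxylase, read 9.89, 9.91, 9.75 and 10.22 in CR and 8.59, 8.54, 9.0 and 8.86 in AL (change 1.19, SE 0.13, adjusted p = 0.00324). Here CR4 was the highest of all 8 arrays, unlike for Mlxipl and Acly. Srebf1 rose by 0.63 (adjusted p = 0.0497) and passed in 3 of 25 alternative settings, and Srebf2 rose by 0.38 (adjusted p = 0.0369).

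The catalytic subunits of AMP-activated kinase, which senses low cellular energy and inhibits acetyl-CoA carboxylase, went in opposite directions. Prkaa2 read 8.02, 8.14, 8.01 and 7.63 in CR and 7.28, 7.14, 7.44 and 7.26 in AL, a rise of 0.67 (SE 0.13, adjusted p = 0.0294). Prkaa1 read 9.11, 8.91, 8.89 and 9.05 in CR and 9.62, 9.43, 9.33 and 9.51 in AL, and fell by 0.48 (SE 0.11, adjusted p = 0.0489). Neither gene's groups overlapped. Another probe set of Prkaa1 was at -0.21 (adjusted p = 0.45), and the call of Prkaa1 held in 5 of 25 alternatives, that of Prkaa2 in 14.

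**Figure D3:**
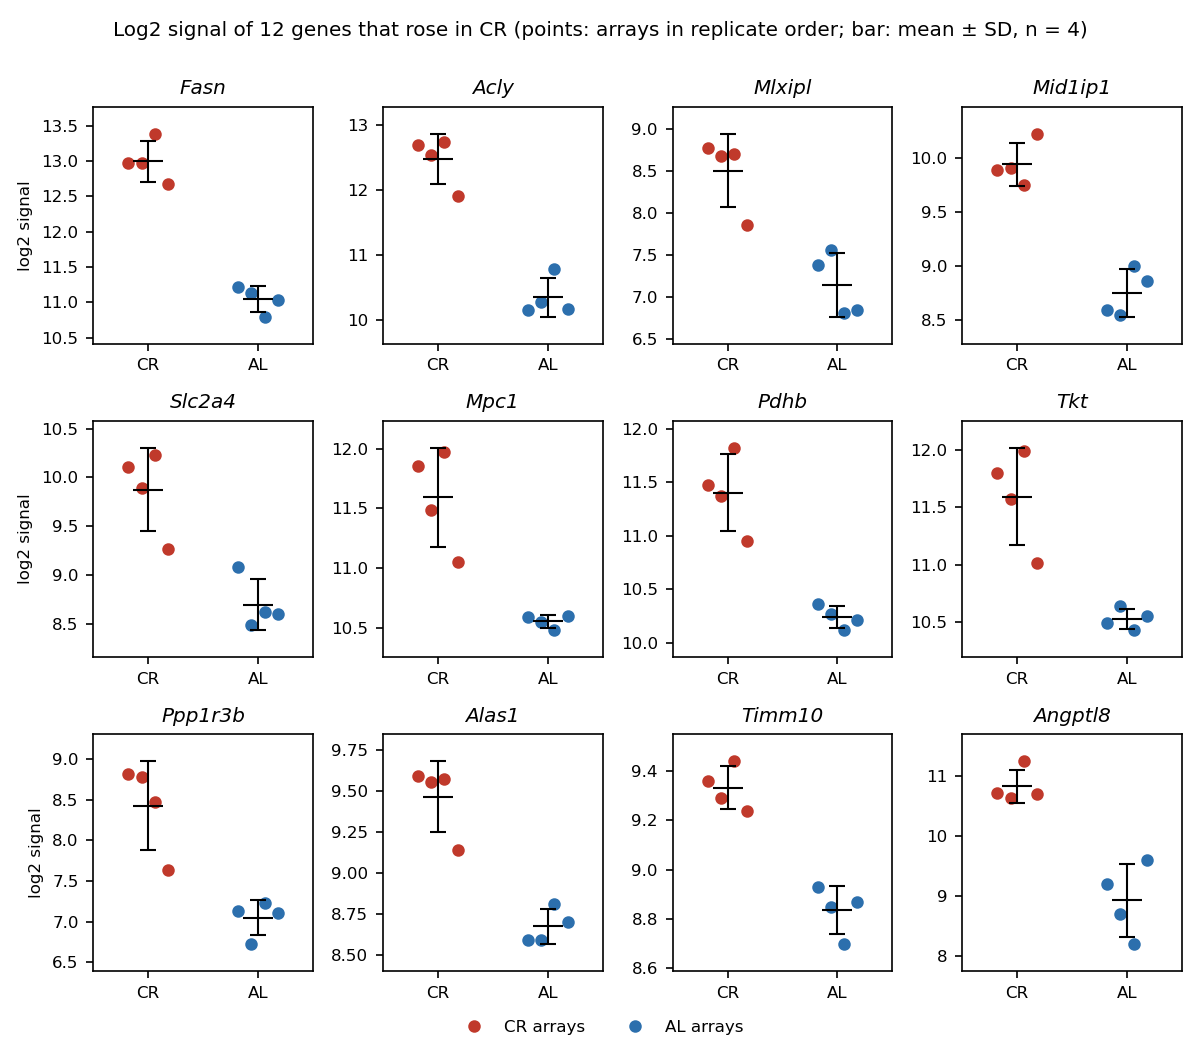
Log2 signal (y axis) of 12 genes that rose, 1 panel per gene, with the 4 CR arrays in red and the 4 AL arrays in blue; the horizontal mark is the mean and the bars are ± SD (n = 4). In every panel the lowest CR point lies above the highest AL point, and CR4, the rightmost red point, is the lowest of its group in all panels but those of Mid1ip1 and Angptl8.

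Some genes of glucose uptake and use outside fatty acid synthesis rose as well. In the glucose uptake and glycolysis list 3 of 22 genes rose, 0 fell and 20 were higher (median 0.23). Slc2a4, the insulin-responsive glucose transporter GLUT4, read 10.11, 9.89, 10.23 and 9.27 in CR and 9.08, 8.49, 8.62 and 8.60 in AL (change 1.18, SE 0.21, adjusted p = 0.0223). CR4, the lowest CR array, still lay above AL1, the highest AL array. Hexokinase Hk2 rose by 1.06 (adjusted p = 0.0365) and aldolase Aldoa by 0.37 (adjusted p = 0.0263).

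Further genes that rose serve the entry of pyruvate into mitochondria and its oxidation to acetyl-CoA. Of 14 genes of pyruvate dehydrogenase and its carriers, 4 rose, 1 fell and 12 were higher (median 0.57). Mpc1, a subunit of the mitochondrial pyruvate carrier, read 11.86, 11.49, 11.97 and 11.05 in CR and 10.59, 10.55, 10.48 and 10.60 in AL (change 1.04, SE 0.16, adjusted p = 0.0151). Its partner Mpc2 was at 0.52 (adjusted p = 0.0546). The dehydrogenase subunit Pdhb read 11.47, 11.37, 11.82 and 10.95 in CR and 10.36, 10.27, 10.12 and 10.21 in AL (change 1.16, SE 0.15, adjusted p = 0.0106). Pdha1 and the activating phosphatase Pdp2 rose by 0.73 and 0.68. Pdk4, a kinase that switches the dehydrogenase off, read 7.57, 7.49, 7.30 and 6.93 in CR and 9.06, 8.34, 8.42 and 8.65 in AL, and fell by 1.29 (SE 0.27, adjusted p = 0.0373), while its other probe set was at -0.31 (adjusted p = 0.352). Pdk1, another such kinase, was at 0.95 without passing (adjusted p = 0.0522), while its other probe set passed at 0.81 (adjusted p = 0.0438), the sign opposite to that of Pdk4. Pc, pyruvate carboxylase, which replenishes oxaloacetate, was at 1.05 (adjusted p = 0.0717), and Pck1, which draws oxaloacetate off, at -1.18 (adjusted p = 0.136).

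The pentose phosphate pathway, the other source of NADPH and of ribose, had 3 of 11 genes that rose and 0 that fell (median 0.22). Transketolase Tkt read 11.80, 11.57, 11.99 and 11.01 in CR and 10.49, 10.64, 10.43 and 10.55 in AL (change 1.07, SE 0.17, adjusted p = 0.0189). Taldo1, transaldolase of the same branch, rose by 0.60 (SE 0.08, adjusted p = 0.0113), and Pgd of the oxidative branch by 0.45 (adjusted p = 0.0391). Glycogen genes rose on both sides of the store: Ppp1r3b, which brings a phosphatase to glycogen and favours its synthesis, read 8.81, 8.78, 8.47 and 7.64 in CR and 7.13, 6.73, 7.23 and 7.11 in AL (change 1.38, SE 0.23, adjusted p = 0.0196). The branching enzyme Gbe1 rose by 0.74 and Pygl, a glycogen phosphorylase that degrades it, by 0.87 (adjusted p = 0.0223 and 0.0151). In all, 3 of 14 glycogen genes rose and 0 fell (median 0.25); glycogen synthase Gys2 was at 0.95 (adjusted p = 0.0826) and Gys1 at 0.23 (adjusted p = 0.262).

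Citrate cycle genes gave 2 of 19 that rose and 0 that fell (median 0.23). These were Mdh1, cytosolic malate dehydrogenase, by 0.45, and Aco1, the cytosolic aconitase that doubles as an iron sensor, by 0.63; both are cytosolic enzymes. Slc25a10, the mitochondrial dicarboxylate carrier, rose by 0.88 (adjusted p = 0.0404) and was with Slc25a1 the pair of 28 solute carriers that passed.

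Single genes of cofactor and nucleotide synthesis also rose. Alas1, the rate-limiting enzyme of haem synthesis outside red cells, read 9.59, 9.55, 9.57 and 9.14 in CR and 8.59, 8.59, 8.81 and 8.70 in AL (change 0.79, SE 0.11, adjusted p = 0.0121). Alad, the enzyme after it, read 10.04, 9.92, 9.94 and 9.68 in CR and 8.91, 9.08, 9.23 and 9.22 in AL (change 0.79, SE 0.09, adjusted p = 0.00417). Neither gene had overlapping groups. They were the 2 genes of 17 on the haem list that passed. Uros and Ppox were at 0.30 and 0.22, Fech, which inserts iron into the ring, at 0.03, and Hmox1, which breaks haem down, at -0.42, without passing.

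The next groups were drawn up after their values were seen, each as a whole family or pathway, and their counts describe these arrays only. In coenzyme A synthesis 3 of 9 genes rose and 0 fell (median 0.38): Slc5a6, which imports the precursor pantothenate, by 0.52, Ppcs by 0.39 and Coasy, which performs the last steps, by 0.38; the kinases Pank1 and Pank3 were at 1.04 and 0.48 without passing (adjusted p = 0.166 and 0.104). In pyrimidine synthesis 2 of 11 rose, 0 fell, 7 were higher and 4 lower, with a median of 0.06. Cad, which starts the pathway, read 8.67, 8.62, 8.76 and 8.50 in CR and 8.33, 8.12, 8.20 and 8.09 in AL (change 0.45, adjusted p = 0.0223), and Dhodh rose by 0.46 (adjusted p = 0.0187). Iron genes were mixed. Tfrc, the transferrin receptor that brings iron into cells, read 9.46, 9.29, 9.50 and 9.39 in CR and 8.87, 8.65, 8.70 and 9.03 in AL (change 0.60, SE 0.10, adjusted p = 0.0198), and Isca1, of iron-sulfur cluster assembly, rose by 0.27. Another probe set of Tfrc was at 0.43 (adjusted p = 0.173). The metalloreductase Steap4 fell by 0.61 and Scara5, a ferritin receptor, by 0.52. With Aco1, this made 3 that rose and 2 that fell of 26 iron handling genes, with a median of 0.06.

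One-carbon metabolism supplies purines and thymidylate. The list of amino acid and one-carbon metabolism had all 26 tested members at or above 0, with 2 that rose (median 0.33). Psat1, of serine synthesis, read 11.34, 11.19, 11.72 and 11.36 in CR and 10.96, 10.82, 10.81 and 10.76 in AL (change 0.57, SE 0.11, adjusted p = 0.0254), and Mthfd1 of the folate cycle rose by 0.36. Psph, the next enzyme of serine synthesis, was at 0.58 (adjusted p = 0.0805). The mean over the list was 8.17, 8.66, 8.22 and 8.54 in CR and 7.91, 7.94, 8.34 and 8.01 in AL. CR2, CR4 and AL3, its highest arrays, were also those high in duct epithelium genes, whose part in this result was not tested.

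Mitochondrial ribosome and import genes were higher by small amounts. Of 37 tested members of this list, 8 rose, 0 fell and 36 were higher, with a median of 0.24. Timm10, a chaperone of the space between the mitochondrial membranes, read 9.36, 9.29, 9.44 and 9.24 in CR and 8.93, 8.85, 8.70 and 8.87 in AL (change 0.50, SE 0.06, adjusted p = 0.00833). Its CR arrays lay close together and all above the AL arrays. The arrays did not overlap for 20 of the 37 genes, each higher in CR (over all named genes this held for 4.97%). Mrpl12, of the large subunit of the mitochondrial ribosome, read 10.08, 9.79, 10.06 and 9.70 in CR and 9.39, 9.37, 9.06 and 9.34 in AL (change 0.61, SE 0.10, adjusted p = 0.0187), though its other probe set was at 0.32 (adjusted p = 0.27). Mrps2, Mrpl15 and Mrpl16 rose by 0.39, 0.28 and 0.32, the import genes Timm17a and Tomm40 by 0.43 and 0.37, and prohibitin Phb2 of the inner membrane by 0.36. Another probe set of Phb2 was at 0.11 (adjusted p = 0.743), and others of Mrps2 were at 0.27 and 0.31 without passing.

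Counts over whole families were taken as well. Of 76 mitochondrial ribosomal protein genes, taken by their symbols after the values were seen, 68 were higher and 8 rose (median 0.15), while of 51 cytosolic ribosomal protein genes 38 were higher and 0 rose (median 0.04). Translocases of both mitochondrial membranes had 3 of 22 that rose and 21 that were higher. Complex I genes had 2 of 41 that rose, Ndufs3 by 0.35 and Ndufa11 by 0.53, with 38 higher and a median of 0.11. Cyc1, of complex III, rose by 0.36 (adjusted p = 0.0398, held in 5 of 25 alternatives). In the shorter respiratory chain list 2 of 27 rose and 26 were higher (median 0.20). None of the 18 mitochondrial biogenesis and thermogenesis genes passed: Ppargc1a, a coactivator of mitochondrial genes, was at 0.83 (SE 0.34, adjusted p = 0.238).

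**Figure D4:**
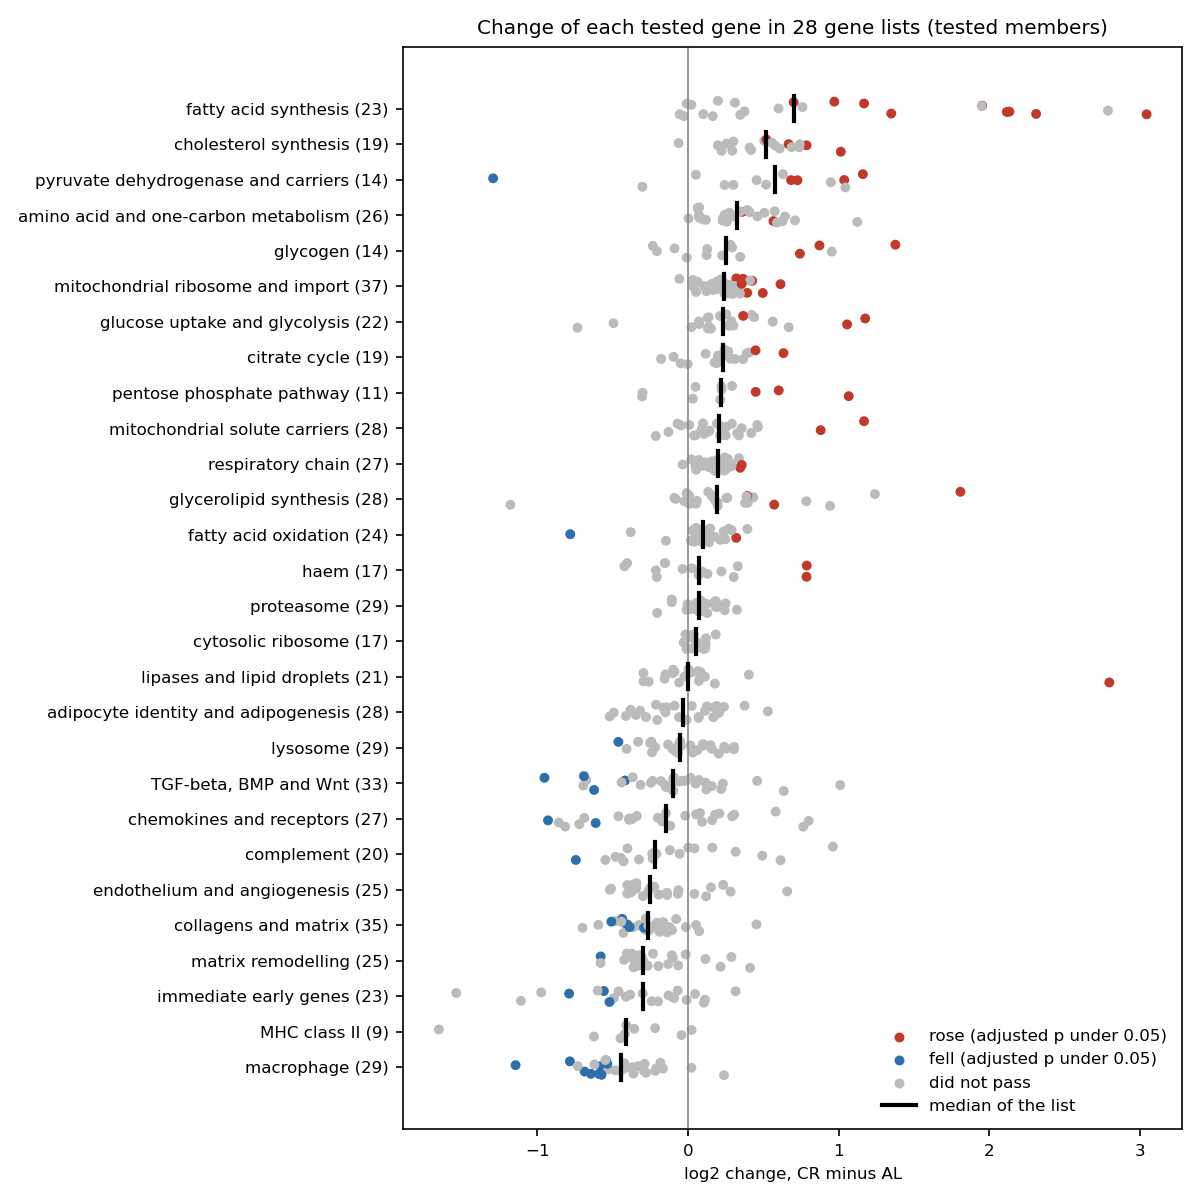
Log2 change, CR minus AL (x axis), of each tested gene in 28 gene lists (y axis, tested members in parentheses); red points rose, blue points fell, grey points did not pass, and black bars mark list medians. The medians run from 0.70 for fatty acid synthesis to -0.45 for the macrophage list, and the points of the mitochondrial ribosome list lie close together around 0.24.

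Genes of triglyceride storage and release held a few large changes. Gpam, which starts glycerolipid synthesis, read 9.39, 9.04, 9.12 and 8.22 in CR and 7.24, 7.45, 6.74 and 7.11 in AL (change 1.81, SE 0.28, adjusted p = 0.0151). With Pcyt2, of phosphatidylethanolamine synthesis (0.57), and the acyl-CoA synthetase Acsl3 (0.39), it made 3 of 28 glycerolipid genes that rose, with 23 higher (median 0.19). Pnpla3, a lipid droplet protein that acts on acylglycerols, rose by 2.80 (SE 0.38, adjusted p = 0.0108) and was the 1 of 21 lipase and droplet genes that passed, where the median was 0.00. The lipases Pnpla2 and Lipe, which release stored fat, were at -0.06 and 0.08 (adjusted p = 0.879 and 0.848).

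Secreted inhibitors of lipoprotein lipase moved apart. Angptl8, which follows feeding, read 10.73, 10.64, 11.25 and 10.71 in CR and 9.21, 8.70, 8.21 and 9.61 in AL (change 1.91, SE 0.30, adjusted p = 0.0159). Angptl4, which follows fasting, read 9.11, 8.39, 9.81 and 9.58 in CR and 11.66, 10.88, 11.04 and 11.16 in AL, and fell by 1.96 (SE 0.29, adjusted p = 0.0151). Lpl itself was at 0.06 (adjusted p = 0.744), with CR2, CR3, AL3 and AL4 above the saturation level. Slc27a3, of the fatty acid transport protein family, fell by 0.58. In fatty acid oxidation Cpt1a, the gate of fatty acids into mitochondria, read 7.84, 8.16, 7.63 and 8.36 in CR and 8.75, 8.52, 8.97 and 8.87 in AL, and fell by 0.78 (SE 0.15, adjusted p = 0.0311). Hadh of the oxidation spiral rose by 0.32 (adjusted p = 0.0419), with its call held in 4 of 25 alternatives. The other probe set of Hadh was at 0.38 (adjusted p = 0.0974). Of 24 genes on this list, 21 were higher (median 0.10).

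Several of the largest rises lay outside any of these routes. C8h11orf54 read 10.61, 10.39, 10.53 and 9.61 in CR and 8.53, 8.71, 8.77 and 8.61 in AL (change 1.63, SE 0.18, adjusted p = 0.00324), but its other probe set was at -0.28 (adjusted p = 0.352). Mrap, which carries the ACTH receptor to the cell surface, read 10.05, 9.84, 9.88 and 9.15 in CR and 8.75, 8.76, 8.66 and 8.70 in AL (change 1.01, SE 0.19, adjusted p = 0.0251). The AL arrays of Mrap lay close together, with CR4 the nearest CR array. Parm1 rose by 1.41, the kinase gene Sbk1 by 1.22, Pm20d2 by 1.01 and Klhdc7a by 0.97. Tm6sf2, which is known in liver for its part in lipoprotein secretion, rose by 0.90 (adjusted p = 0.0395), and Chchd10, a mitochondrial protein, by 0.77 (adjusted p = 0.0414). Cd40, a receptor of the TNF receptor family best known on immune cells, rose by 0.92 (SE 0.19, adjusted p = 0.0412), against the sign of most leukocyte genes below. Acsm1, an acyl-CoA synthetase of medium-chain fatty acids, rose by 0.84 (adjusted p = 0.0357).

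Macrophage genes were the list with the most members that fell. Of 29 tested, 9 fell, 0 rose and 27 were lower in CR, with a median of -0.45, and the arrays did not overlap for 15, each lower in CR (over all named genes this held for 6.42%). Adgre1, the F4/80 antigen, read 7.89, 7.99, 7.79 and 8.01 in CR and 8.65, 8.41, 8.63 and 8.73 in AL, and fell by 0.69 (SE 0.09, adjusted p = 0.0106). Cd68, of macrophage lysosomes, read 8.73, 8.62, 8.73 and 8.68 in CR and 9.24, 9.03, 9.48 and 9.37 in AL, and fell by 0.59 (SE 0.09, adjusted p = 0.0151). The CR arrays of both genes lay closer together than the AL arrays, and the groups did not overlap. Ptprc, the pan-leukocyte antigen CD45, read 8.50, 8.66, 8.08 and 8.74 in CR and 9.19, 9.19, 9.36 and 9.37 in AL, and fell by 0.78 (SE 0.12, adjusted p = 0.0151).

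The other members that fell serve as receptors, adaptors and effectors of these cells. Csf1r, the receptor for the macrophage growth factor, fell by 0.58, the signalling adaptors Fcer1g and Tyrobp by 0.54 each, the tetraspanin Cd53 by 0.57 and Cybb of the phagocyte oxidase by 0.64. Osteopontin Spp1 fell by 1.14 (SE 0.25, adjusted p = 0.0451), with 7.40 on CR4 above 7.35 on AL1, so that its groups overlapped. Mrc1, C1qa and Gpnmb were at -0.53, -0.55 and -0.62 without passing (adjusted p = 0.0802, 0.0726 and 0.179).

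Further leukocyte genes past the threshold were noted after their values were seen. Siglec10, an inhibitory receptor for sialic acid, read 5.89, 5.78, 5.87 and 6.44 in CR and 7.04, 7.15, 7.78 and 7.87 in AL, and fell by 1.46 (SE 0.21, adjusted p = 0.0121). The receptor genes Clec4a3 and Igsf6 fell by 0.89 and 0.74, the scavenger receptor Stab1 by 0.67 and Cd300a by 0.68. The call of Cd300a held in 6 of 25 alternatives. Over whole families, 2 of 15 C-type lectin genes fell and 4 were higher (median -0.25). Of 4 Siglec genes 1 fell (median -0.53). Toll-like receptors Tlr2 and Tlr8 fell by 0.50 and 0.43, as did Unc93b1, which escorts such receptors to endosomes, by 0.51; Tlr4 and Tlr7 were at -0.36 and -0.34 without passing. Several genes that govern actin in blood cells fell too: Coro1a by 0.71, Gmfg by 0.53, Wipf1 by 0.51, Fermt3 by 0.48, Fmnl1 by 0.42, Rac2 by 0.38 and Vasp by 0.37. Spn, sialophorin of the leukocyte surface, read 7.87, 7.91, 8.01 and 8.01 in CR and 8.40, 8.31, 8.44 and 8.46 in AL, and fell by 0.45 (SE 0.06, adjusted p = 0.00833); it was the 1 of 20 lymphocyte genes that passed (median -0.18).

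A few secreted immune genes fell. Of 27 chemokines and receptors 2 fell, Ccl9 by 0.93 and Ccl6 by 0.61 (adjusted p = 0.0236 and 0.0358), and 0 rose (median -0.15); Ccl2, which draws monocytes, read 7.49, 7.18, 8.19 and 8.16 in CR and 8.53, 8.02, 8.75 and 8.98 in AL and did not pass (change -0.82, SE 0.28, adjusted p = 0.173). Cfp, properdin of the alternative complement pathway, fell by 0.74, alone among 20 complement genes (median -0.22), with another of its probe sets at -0.35. The cytokine gene Il33 fell by 0.43, and Pla2g2d, a secreted phospholipase of lymphoid tissue, read 8.45, 8.33, 8.03 and 8.32 in CR and 9.05, 9.29, 9.34 and 9.44 in AL and fell by 1.0 (SE 0.14, adjusted p = 0.0125). Of the 9 tested genes of MHC class II, which presents antigen, 8 were lower and 0 passed (median -0.41), with their master regulator Ciita at -0.42 (adjusted p = 0.0975). The mean of the class II list was 9.11, 10.40, 9.48 and 10.46 in CR and 10.25, 10.23, 10.60 and 10.21 in AL, so that the groups overlapped. Interferon response genes had 0 of 21 past the threshold (median -0.13).

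**Figure D5:**
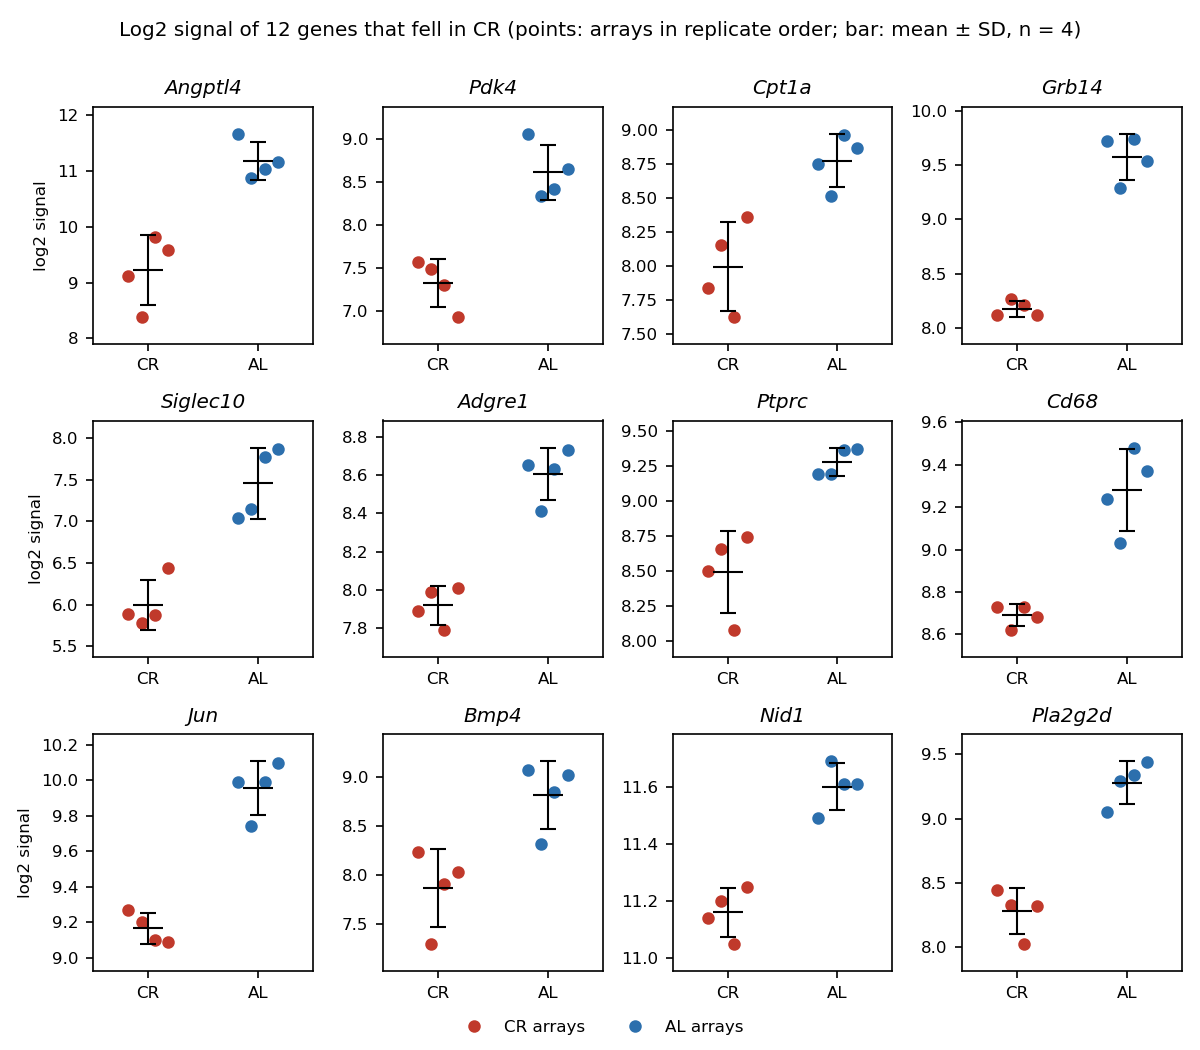
Log2 signal (y axis) of 12 genes that fell, 1 panel per gene, with the 4 CR arrays in red and the 4 AL arrays in blue; the horizontal mark is the mean and the bars are ± SD (n = 4). The highest CR point lies below the lowest AL point in each panel, with Grb14 showing CR values of 8.12 to 8.27 and AL values of 9.29 to 9.74.

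Promoter sequence was read for the genes that changed, from the RefSeq table of assembly GRCr8, over the 250 bases before the gene start. It held 10052 of the tested genes, 104 of those that rose and 115 of those that fell. The motif AGGAAGT, which holds the core of sites for PU.1, a factor of myeloid cells, occurred on either strand in 20% of the promoters of genes that fell (23 of 115) and 5.77% of those of genes that rose, against 7.50% of all tested genes. CCGGAAGT, a form bound by other ETS factors such as GABP, was present in 0.87% of genes that fell, 6.73% of genes that rose and 6.50% of all tested. These motifs share GGAAGT but differ in the base before it, so no site counts for both. CCAAT, read by NF-Y, stood in 29.6% of genes that fell, 44.2% of genes that rose and 35.2% of all tested, and GGGCGG, an Sp1 box, in 41.7%, 58.7% and 57.7%. CACGTG, the E-box, stood in 7.83%, 9.62% and 8.15%, and TCACCCCAC, known from SREBP targets, in 0% (0 of 115), 1.92% (2 of 104) and 0.348%. A match is a string of letters and was not tied to binding here. These 4 promoters show these letters in capitals, in a lipogenic gene that rose, a mitochondrial import gene that rose and 2 leukocyte genes that fell. Each runs 5′ to 3′ on the strand of the gene.
Acly, chr10:85963632-85963881 (minus strand): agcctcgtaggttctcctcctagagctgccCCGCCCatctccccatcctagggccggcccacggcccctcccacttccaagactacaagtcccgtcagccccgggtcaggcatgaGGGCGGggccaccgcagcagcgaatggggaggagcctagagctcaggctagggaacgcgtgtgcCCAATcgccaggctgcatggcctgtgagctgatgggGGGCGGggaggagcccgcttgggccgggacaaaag
Timm10, chr3:90314889-90315138 (plus strand): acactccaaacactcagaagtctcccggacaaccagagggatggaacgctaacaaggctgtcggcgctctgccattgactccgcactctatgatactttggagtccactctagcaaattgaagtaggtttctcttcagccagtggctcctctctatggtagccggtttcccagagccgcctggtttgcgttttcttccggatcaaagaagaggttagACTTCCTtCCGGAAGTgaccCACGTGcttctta
Igsf6, chr1:185051957-185052206 (minus strand): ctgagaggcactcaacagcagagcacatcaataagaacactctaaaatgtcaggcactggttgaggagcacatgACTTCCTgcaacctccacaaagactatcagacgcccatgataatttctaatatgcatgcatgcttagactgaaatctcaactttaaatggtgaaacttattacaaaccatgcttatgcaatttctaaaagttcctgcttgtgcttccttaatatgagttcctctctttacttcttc
Ptprc, chr13:52259747-52259996 (minus strand): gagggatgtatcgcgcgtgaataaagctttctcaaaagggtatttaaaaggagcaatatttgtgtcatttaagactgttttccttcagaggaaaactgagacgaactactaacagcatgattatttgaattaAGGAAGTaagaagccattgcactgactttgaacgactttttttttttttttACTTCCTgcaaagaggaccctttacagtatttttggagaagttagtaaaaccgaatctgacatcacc
The capitals mark CCAAT and GGGCGG or their complements in Acly, CCGGAAGT, CACGTG and the complement of AGGAAGT in Timm10, and AGGAAGT or its complement in Igsf6 and Ptprc.

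Some matrix genes fell. Of 35 collagens and matrix proteins, 5 fell, 0 rose and 32 were lower (median -0.26). Nid1, which links the sheets of basement membranes, read 11.14, 11.20, 11.05 and 11.25 in CR and 11.49, 11.69, 11.61 and 11.61 in AL, and fell by 0.44 (SE 0.06, adjusted p = 0.0150), while its other probe set was at -0.04. The small proteoglycan Lum fell by 0.51, Sparc by 0.39 (with AL4 above the saturation level), Sparcl1 by 0.29 and Col6a3 by 0.40, the last with a call in 4 of 25 alternatives. Another probe set of Col6a3 was at -0.15 (adjusted p = 0.462). The fibrillar collagens Col1a1 and Col3a1 were at -0.28 and -0.16 (adjusted p = 0.473 and 0.521), and fibronectin Fn1 at -0.60 (adjusted p = 0.0677). Aspn, a small proteoglycan of the same family as Lum, fell by 0.87, the microfibril genes Mfap4 and Mfap5 by 0.65 and 0.57, and the aggrecan-cleaving protease Adamts5 by 0.58, the 1 of 25 matrix remodelling genes that passed (median -0.30). Endothelial genes had 0 of 25 past the threshold and 19 lower (median -0.25), with Tie1 and Eng at -0.40 and -0.39 (adjusted p = 0.0679 and 0.0755).

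In the TGF-beta, BMP and Wnt list 4 of 33 genes fell, 0 rose and 11 were higher (median -0.10). Bmp4, a factor that commits precursors to the fat lineage, read 8.23, 7.30, 7.91 and 8.03 in CR and 9.07, 8.32, 8.85 and 9.02 in AL, and fell by 0.95 (SE 0.21, adjusted p = 0.0498). CR1 and AL2 were the nearest arrays of the groups, which did not overlap, and the call held in 6 of 25 alternatives. Ltbp1, which stores latent TGF-beta in the matrix, fell by 0.69, the follistatin-like gene Fstl1 by 0.62 and Tgfb1 by 0.42.

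Insulin signalling had 1 of 36 genes past the threshold, close to the share over all named genes (1.02% rose and 1.23% fell). Grb14, an adaptor that binds the insulin receptor and restrains it, read 8.12, 8.27, 8.21 and 8.12 in CR and 9.72, 9.29, 9.74 and 9.54 in AL, and fell by 1.40 (SE 0.13, adjusted p = 0.00174). The CR arrays lay close together and well below every AL array. The median of the list was 0.04. Of the 272 genes past the threshold, 118 were followed gene by gene through the 25 alternatives. Among these 118, Grb14, Fasn and the transcription factor gene Jun were the 3 that kept their calls in all. Others were kept in few of the 25, such as Pim3 in 5, Hs2st1 and Acsl3 in 6 each and Coro1a in 7.

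Jun read 9.27, 9.20, 9.10 and 9.09 in CR and 9.99, 9.74, 9.99 and 10.10 in AL, and fell by 0.79 (SE 0.08, adjusted p = 0.00208), with its other probe sets at -0.44 and -0.50 without passing. Atf3, a stress-induced factor, fell by 0.56 and Klf6 by 0.52; these made 3 of 23 immediate early genes (median -0.30), while Fos, Fosb and Egr1 were at -1.54, -1.11 and -0.98 without passing (adjusted p = 0.129, 0.0927 and 0.19), and another probe set of Fos was at 0.21 (adjusted p = 0.588). Klf11, a Kruppel-like factor, fell by 0.73 and the kinase gene Pim3 by 0.84. Other probe sets of Klf11 were at -0.24 and -0.53 without passing. Plagl1, an imprinted transcription factor, read 8.82, 8.59, 8.78 and 9.0 in CR and 10.06, 9.52, 9.59 and 10.14 in AL, and fell by 1.03 (adjusted p = 0.0157), but it was at -0.26 on the series matrix values. Igfbp5, which binds insulin-like growth factors, fell by 0.55, while its other probe sets were at -0.11, -0.63, -0.50 and -0.43 without passing. Igf1 was at -0.39 (adjusted p = 0.0902) by its brightest probe set, though another passed at -0.70 (adjusted p = 0.046). The remaining Igf1 probe set was at -0.45 (adjusted p = 0.0706). Ghr, the GH receptor, was at -0.32 (adjusted p = 0.266).

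Among the remaining genes that fell most were channels and receptors. Kcnip1, a subunit of potassium channels, read 6.57, 6.83, 6.23 and 6.80 in CR and 7.83, 7.88, 7.17 and 7.92 in AL, and fell by 1.09 (SE 0.19, adjusted p = 0.0223). Chrna1, a subunit of the muscle acetylcholine receptor, fell by 0.93 and Slc8a1, the sodium-calcium exchanger, by 0.77. Rbp7, a retinol-binding protein, fell by 0.92 and Dhrs7, a dehydrogenase/reductase, by 0.46, 2 of 29 steroid and retinoid genes (median -0.03). Lipa, the acid lipase of lysosomes, fell by 0.46, alone among 29 lysosome genes (median -0.05). Apeg3, Hs2st1 and Arhgap6 fell by 0.90, 0.79 and 0.75. Other probe sets did not pass, at -0.80, -0.22 and -0.52 for Apeg3 and -0.59 and -0.80 for Hs2st1.

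Adipocyte hormones and identity genes gave 0 calls in limma's test, which the share of calls over all named genes can also give in lists so short. The single-gene values show where they lay. Lep, leptin, read 11.11, 10.89, 11.05 and 11.09 in CR and 10.78, 11.13, 10.84 and 11.21 in AL (change 0.04, SE 0.13, adjusted p = 0.879). Adipoq, adiponectin, was at 0.03 (SE 0.09, adjusted p = 0.906), with CR2 and AL4 above the saturation level, and Pparg, the adipogenic receptor, at 0.38 (SE 0.30, adjusted p = 0.55). Fgf21 was at 0.05 and Nampt, of NAD synthesis, at 0.35 (adjusted p = 0.862 and 0.163). The clock gene Bhlhe40 read 9.02, 9.09, 9.21 and 9.02 in CR and 7.22, 8.07, 8.58 and 8.48 in AL without passing (change 1.0, SE 0.25, adjusted p = 0.0735). Its groups did not overlap, but AL1 stood well below the other AL arrays. Cytosolic ribosome, proteasome, heat shock, endoplasmic reticulum chaperone, autophagy and antioxidant lists also had 0 members past the threshold, with medians of 0.05, 0.07, -0.00, 0.09, -0.07 and 0.10; in the antioxidant list Gss of glutathione synthesis was at 0.34 (adjusted p = 0.0544). Proliferation genes had 0 of 23 past the threshold, with Mki67 at -0.74 (adjusted p = 0.188) and 7.17 on AL2.

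How firmly these counts stood depended on single arrays. CR4 was the lowest CR array for 80 of the 123 genes that rose (65%), and CR3 the highest for 65. For the 149 genes that fell, AL4 was the highest AL array for 69 and AL2 the lowest for 74. Without AL4, 5 fatty acid synthesis genes rose instead of 9, 1 mitochondrial ribosome or import gene instead of 8, 0 cholesterol genes instead of 4, and 1 macrophage gene fell instead of 9. Without CR3, CR4 and Tg1, 8 fatty acid synthesis and 1 mitochondrial ribosome or import gene rose and 2 macrophage genes fell. Without AL1, AL2, CR1 and Tg2, 1 fatty acid synthesis gene rose and 0 mitochondrial ribosome or import and 0 macrophage genes changed at adjusted p under 0.05, though the same lists had 21 of 23 and 37 of 37 members higher and 1 of 29 higher in CR. With the spermatid and duct epithelium means as covariates the counts were 13, 19 and 15.

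Set against the Tg rats, which were fed freely but carry the antisense transgene, 402 probe sets differed from CR (1.73%), 251 higher and 151 lower in CR, and 199 passed with the replicate number as a block. The CR arrays enter both comparisons. Angptl8 was 3.12 higher in CR than in Tg (adjusted p = 0.00158, and 0.00749 with the block), Fasn 2.08 (0.00012 and 0.00395) and Elovl6 3.07 (0.0101 and 0.0181). Timm10 was 0.60 higher (adjusted p = 0.00285, and 0.0181 with the block), and Grb14 0.93 lower (0.0143 and 0.0225). Some genes that differed between CR and AL did not pass between CR and Tg in either fit. Spn was at 0.04 (adjusted p = 0.727, and 0.702 with the block), Acsm1 at 0.06 (0.896 and 0.902), Bmp4 at -0.34 (0.429 and 0.117) and Cd68 at -0.37 (0.061 and 0.0648). Other macrophage genes that fell against AL did pass between CR and Tg in limma's fit without the block. These were Adgre1 at -0.53, Cybb at -0.69 and Csf1r at -0.45 (adjusted p = 0.0215, 0.037 and 0.0454). Ptprc, Spp1, Fcer1g, Tyrobp and Cd53 did not pass in that fit. The difference between a gene's changes in these comparisons is the contrast of Tg with AL, which is not reported here.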

How the data were processed

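RNA of 12 fat pads was hybridised to 1-colour Affymetrix rat arrays. The deposited files give, for every probe of an array, a score; per the file headers another deposited table lists other values, namely the background and the mean and SD of the log10 intensity, with which the scores were undone to whole numbers (within 0.01) for 100% of values under 5000. The score is thus the authors' log10 of the background-subtracted signal, centred and scaled per array. The authors' series matrix holds a linear intensity; the software behind it is not stated there.

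Scores were summarised by median polish, returned to log2 units by the SD and mean averaged over the 12 arrays, and floored at a signal of 1. The design had assumed 1 value per probe set. Of 31099 probe sets, 57 controls and those at or below the 25th percentile of mean signal were left out. Platform annotation named 20832 probe sets by 1 symbol, 436 by several and 9831 by none; 20764 matched RefSeq. Limma 3.58.1 in R 4.3.3 (lmFit, eBayes with trend; 12 arrays, 3 group means, two-sided, Benjamini-Hochberg) gave changes with SE; the median SE was 0.113. The spread of 4 arrays per group limits precision. The fit was tested on simulated data.

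Named genes are the 40 that rose and the 40 that fell most among those past the threshold without overlap, up to 4 of each of 61 gene lists in each direction (2 where none passed), and a fixed set; other genes were named after their values were seen. Members and lists were chosen with earlier results of these data known. Some genes on the lists were not analysed here. Deviations of same-numbered CR and Tg arrays correlated (r from 0.353 to 0.649), but CR2 and CR3 correlated better with another Tg array (0.754 and 0.592). Replicate numbers are not said to pair animals, so the main fit was unpaired and the block is given beside it. For same-numbered CR and AL arrays r ran from -0.529 to 0.529. The 25 alternatives varied the summary, scaling, filter, trend, block, covariates, arrays and values; 3 were added after seeing the data.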

Additional observations from a re-analysis of the deposited data

Results flagged for a closer look

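Within a group of 4 arrays, 24 values of 23 genes stood far from the other arrays, out of 372 groups examined; chance gives about 1 in 20. AL3 held 8 of them and CR4 held 5.

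Among genes that rose, CR4 was low for Mlxipl at 7.86 (others 8.68 to 8.78) and for Alas1 at 9.14 (others 9.55 to 9.59), and CR3 was high for Angptl8 at 11.25 (others 10.64 to 10.73). AL3 was low for Mrpl12 at 9.06 (others 9.34 to 9.39), and AL4 high for Pgd at 10.79 (others 10.53 to 10.56). Among genes that fell, CR4 was high for Siglec10 at 6.44 (others 5.78 to 5.89) and low for Apeg3 at 9.09 (others 9.48 to 9.52). AL3 was low for Kcnip1 at 7.17 (others 7.83 to 7.92) and Hs2st1 at 9.83 (others 10.16 to 10.22), and high for Clec4a3 at 9.46 (others 9.04 to 9.06). AL2 was low for Cd300a at 6.50 (others 6.89 to 6.95), and Col6a3 was low on CR2 at 10.18 (others 10.50 to 10.51) and high on AL4 at 10.95 (others 10.78 to 10.79).

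The remaining values concern these genes. AL3 stood at 8.43 for Tfb2m (others 8.34 to 8.35), 6.45 for Hp (others 6.11 to 6.12) and 10.23 for Prdx6 (others 9.87 to 9.92). For Insig1 AL3 stood at 10.64, against 11.33 to 11.45 on the other AL arrays. AL4 stood at 8.98 for Bace2 (others 8.69 to 8.73), and AL2 at 7.17 for Mki67 against 6.11 to 6.12. CR3 stood at 8.36 for Mccc1 (others 8.11 to 8.15) and 7.88 for Wipi1 (others 8.20 to 8.24). CR1 stood at 5.94 for Cdkn2b (others 5.56 to 5.62) and 11.57 for Ghr (others 11.19 to 11.24). Adam7, an epididymis gene, stood at 12.25 on CR4 and at 4.89 to 5.71 on the other CR arrays.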

How the results depend on the processing

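Counts of calls moved with the arrays used, and the cause was not tested. Between CR and AL, 417 probe sets passed: 59 on recovered intensities, 273 with the replicate block (the numbers do not pair these arrays; 1 of 4 CR arrays correlated best with its own number), 1798 with spermatid and duct epithelium means as covariates, 96 with the 8 CR and AL arrays alone, 5 without AL1, AL2, CR1 and Tg2, and 107 without CR3, CR4 and Tg1. Leaving out single arrays gave 40 (without AL4) to 381 (without CR4), with 127 without AL1, 109 without AL3, 162 without CR1, 117 without CR2, 115 without CR3 and 256 without Tg2. Between CR and Tg, 402 passed: 230 on centred arrays, 32 on recovered intensities, 199 with the replicate block, 1942 with the covariates, 1 without AL1, AL2, CR1 and Tg2, 97 without CR3, CR4 and Tg1, and 35 (without CR1) to 558 (without CR4) with single arrays left out. Over 185 named genes and all settings, 3494 values stayed on their side of the threshold, 1080 lost the call and 35 gained it. Of all 4609, 18 had the opposite sign, all of 8 genes that did not pass (Myh1, Gapdhs, Lep, Adipoq, Fgf21, Lpl, Pnpla2 and Lipe). The recovered intensities and both sets of left-out arrays were added after seeing the data. Signal above the deposited saturation level limits Thrsp, Sparc, Scd, Lpl and Adipoq.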
